A study of Mus musculus with 12 samples.

Results

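The mitotic kinesin motors are 10 genes, Kif11, Kif15, Kif4, Kif22, Kif2c, Kif18b, Kif20a, Kif20b, Kif23 and Kif14, and they were found by symbol among the 54532 genes of the deposited tables. Each symbol matched 1 row. The genes were picked as a group with their response to the antibody known, so every antibody comparison of them below is a description. No p-value of those comparisons is given for them. Counts of calls stand only beside the share called among all genes and support nothing. The tests are those of the fibronectin coating and of the interaction of antibody and coating. The interaction is built from the same antibody changes, so it is not free of that choice.

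RNA-seq had been performed on 12 libraries of bone marrow macrophages (BMMs), which are macrophages grown from bone marrow (of the tibia in the labels, of femur and tibia in the study's methods) with CSF-1, the growth factor that macrophages depend on. The cells came from wild-type C57BL/6J mice aged 2 to 3 months, received CSF-1 at 12 ng/ml for 24 h and at 120 ng/ml for a further 48 h, and were passaged 1 time and grown to confluence. The study asked how macrophages respond when ITGA5, the alpha chain of the fibronectin receptor, is blocked. The libraries formed 4 groups of 3. Uncoated dishes received control IgG (IgG without fibronectin) or the anti-ITGA5 neutralizing antibody (anti-ITGA5 without fibronectin), and dishes coated with fibronectin at 10 µg/ml received the same antibodies (IgG with fibronectin for the former, anti-ITGA5 with fibronectin for the latter). Each antibody was used at 10 µg/ml for 24 h. All 4 groups shared the serum and the CSF-1 culture, 1 antibody against ITGA5 was used at 1 dose and 1 time, and confluent cultures of this kind are a model of macrophages outside tissue. The study calls the replicates of its bone marrow macrophage groups biologically independent experiments, the labels do not say whether the 3 libraries of a group came from separate mice, and the p-values measure only the spread between these libraries.

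Kinesins are motor proteins that walk along microtubules or dismantle them with the energy of ATP. Mitotic kinesins build the bipolar spindle, move and align chromosomes, trim microtubule ends, and organise the central spindle where the cell divides. Their transcripts are known to be low outside the cell cycle and to accumulate toward mitosis, and macrophages kept with CSF-1 can divide.

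The libraries held 12954342 to 22075432 counts on genes. The 10 macrophage markers examined (such as Csf1r, Adgre1 and Cd68) all reached at least 10 counts in a library, and their summed level was 10746 to 11628 FPKM, which is a count scaled for gene length and library total, in IgG without fibronectin and 11373 to 11564 FPKM in IgG with fibronectin. In anti-ITGA5 the sum was lower, at 7511 to 9244 FPKM without fibronectin and 9109 to 9247 FPKM with fibronectin, and most of the difference came from Lyz2, the lysozyme gene, whose mean was 7514 FPKM in IgG and 5256 FPKM in anti-ITGA5 without fibronectin and 7809 and 5691 FPKM with fibronectin. The log2 fold changes with the antibody, without and with fibronectin, were -0.51 and -0.46 for Lyz2 and -0.48 and -0.41 for Mertk. They were -0.47 and -0.31 for Itgam and -0.20 and -0.17 for Cd68, and these 4 were called lower in each comparison. The other 6 were not called, among them Csf1r at -0.12 and -0.02 and Adgre1 at 0.02 and 0.10. Fibroblast (8 genes) and lymphocyte (6) markers summed to at most 0.447 and 0.481 FPKM in any library, with Tcf21 and Cd3g at 0 in all 12. Neutrophil markers (8 genes, Ly6g at 0) summed to 8.26 to 10.0 FPKM in IgG and 6.02 to 7.39 FPKM in anti-ITGA5 without fibronectin and to 8.78 to 9.42 and 5.51 to 7.42 FPKM with fibronectin, without overlap in each. Myeloid progenitor markers (8 genes) summed to 1.36 to 1.72 FPKM in IgG and 0.908 to 1.97 FPKM in anti-ITGA5 without fibronectin and to 1.41 to 2.59 and 1.59 to 1.64 FPKM with fibronectin, with overlap. The replicates of anti-ITGA5 without fibronectin stood apart: the chi-square per gene between pairs of them was 10.4 to 23.0, against 2.65 to 7.45 for pairs in the other groups, replicate 2 was the shallowest library, and in replicates 2 and 3 noncoding genes held 1.91% and 1.96% of the counts against 1.08% to 1.31% elsewhere.

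All 10 mitotic kinesins were higher upon ITGA5 neutralization, in the absence as well as in the presence of fibronectin. The log2 fold change ran from 1.13 (Kif15) to 1.83 (Kif2c) without fibronectin, with a median of 1.48, and from 0.98 (Kif15) to 1.83 (Kif2c) with fibronectin, with a median of 1.45. The median of all genes tested was 0.0090 and -0.0038. Together the 10 genes held 259 to 343 CPM (counts scaled to a common library total) in IgG without fibronectin and 719 to 933 in anti-ITGA5, and 256 to 346 in IgG with fibronectin and 674 to 898 in anti-ITGA5. With edgeR at an adjusted p of at most 0.05, 10 of 10 were called higher in each comparison, where 11% of 12924 and 14.4% of 12916 genes tested were called higher, 9.79% and 13.2% lower, and 20.8% and 27.6% in either direction. The lowest library of anti-ITGA5 lay above the highest library of IgG in FPKM for 10 of 10 in each comparison, as for 18.7% and 21.7% of the genes tested. Since the genes were chosen on this contrast, nothing is read from these counts. Scaling by total counts in place of TMM turned the split of called genes from 1419 higher and 1265 lower to 1838 and 940 without fibronectin, and from 1866 and 1699 to 2407 and 1264 with fibronectin. All 10 passed the filter on low counts in every comparison, the smallest count of any of them in a library being 179 (Kif18b). In bulk RNA, fewer or more cells that hold a transcript and less or more of it per cell cannot be told apart. Of the 10 macrophage markers, 4 (Lyz2, Cd68, Itgam and Mertk) were called lower and 0 higher in each antibody comparison. Of the neutrophil markers 2 were tested, and Csf3r was called lower in each (log2 fold change -0.64 and -0.41). Of the myeloid progenitor markers, 0 of 1 tested was called without fibronectin, and 2 of 3 (Cd34 at -0.41 and Mpo at -0.94) were called lower with fibronectin. The part of these markers in the result was not tested. Without replicate 2 of anti-ITGA5 without fibronectin the median of the kinesins was 1.37, and without replicate 3 it was 1.53.

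**Figure D1:**
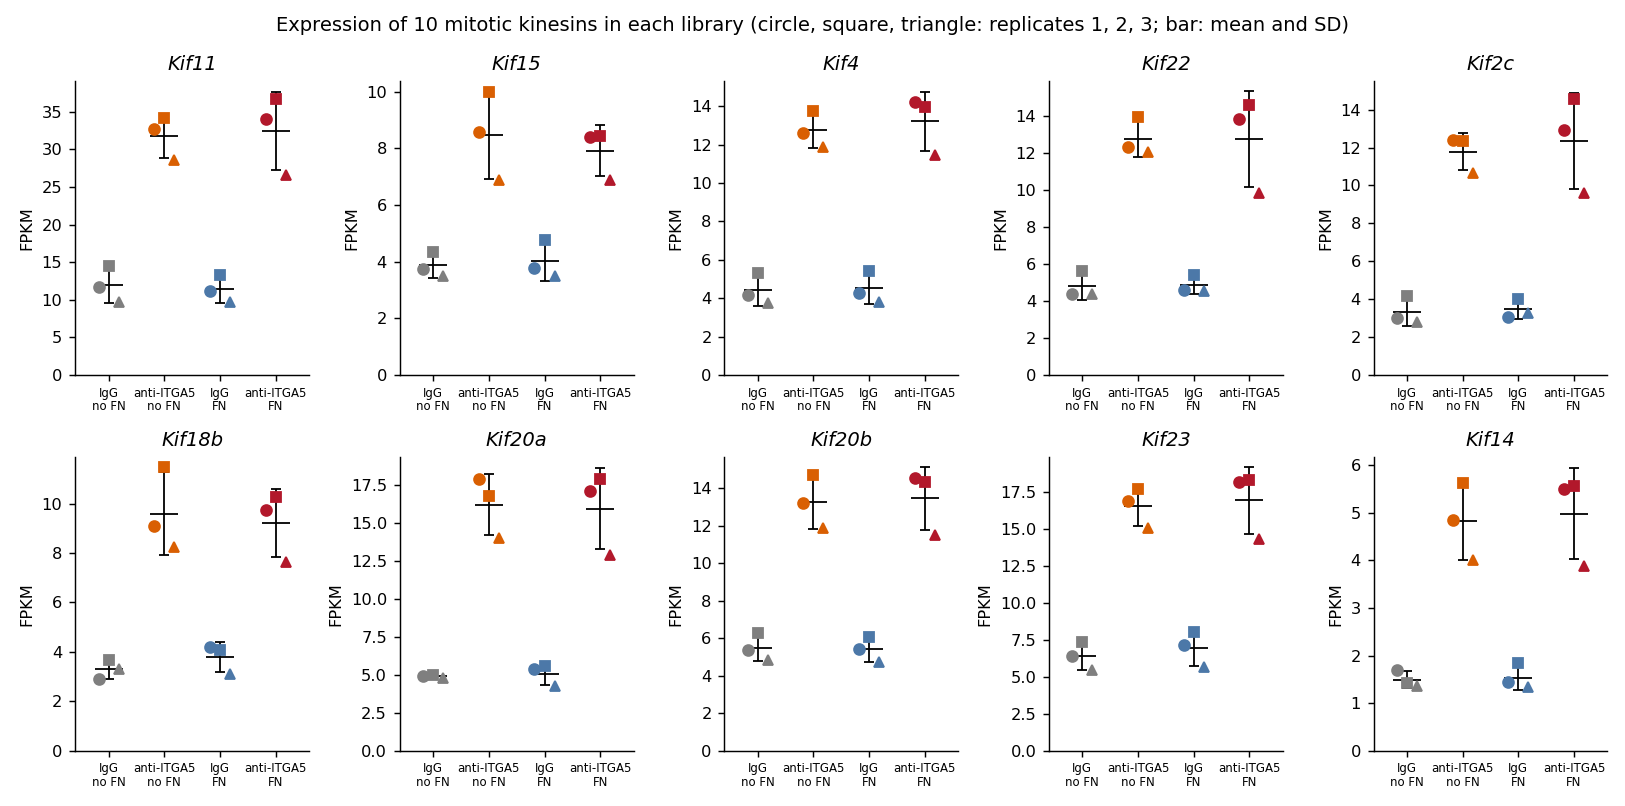
FPKM of the 10 mitotic kinesins (vertical axes, each from 0) in the 4 groups, with 1 point per library (circle, square and triangle for replicates 1, 2 and 3) and a bar for the mean and SD of 3; FN stands for fibronectin. For every gene the 6 anti-ITGA5 libraries lie above the 6 IgG libraries, while uncoated and coated dishes overlap.

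Kif11 and Kif15 are the motors that push spindle poles apart, Kif11 as the main one and Kif15 as a motor that can stand in for it. Kif11 (chr19:37376403-37421859, plus strand, GRCm38) stood at 9.72, 11.7 and 14.5 FPKM in IgG without fibronectin and at 28.6, 32.7 and 34.1 FPKM in anti-ITGA5. With fibronectin it stood at 9.72, 11.2 and 13.3 FPKM in IgG and at 26.6, 34.1 and 36.7 FPKM in anti-ITGA5. Kif11 thus had the highest level per length of the 10 genes in all 4 groups, and its anti-ITGA5 libraries were at or above 26.6 FPKM throughout. Its log2 fold change was 1.41 ± 0.124 (SE) without and 1.51 ± 0.116 with fibronectin. Kif15 (chr9:122951046-123018733, plus strand) had the smallest change of the 10 in each comparison. It stood at 3.50, 3.76 and 4.35 FPKM in IgG and 6.86, 8.57 and 9.99 FPKM in anti-ITGA5 without fibronectin, and at 3.48, 3.78 and 4.78 FPKM against 6.88, 8.41 and 8.45 FPKM with fibronectin. The groups did not overlap, and the log2 fold change was 1.13 ± 0.129 without and 0.98 ± 0.105 with fibronectin. The 2 motors therefore did not keep their ratio. Kif11 FPKM were 2.78 to 3.34 times those of Kif15 in the 6 IgG libraries and 3.42 to 4.34 times in the 6 anti-ITGA5 libraries. Tpx2, which binds Kif11 at the spindle, changed by 1.33 and 1.36, and the ratio of Kif11 to Tpx2 overlapped between IgG (0.822 to 0.897) and anti-ITGA5 (0.874 to 1.00) without fibronectin but not with fibronectin (0.802 to 0.836 against 0.889 to 0.944).

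Kif4 and Kif22 are chromokinesins, motors that bind chromosome arms and push them away from the poles; Kif4 also works with Prc1 on the central spindle. Kif4 (chrX:100625737-100727214, plus strand) stood at 3.72, 4.18 and 5.30 FPKM in IgG and 11.9, 12.6 and 13.7 FPKM in anti-ITGA5 without fibronectin. With fibronectin the levels were 3.81, 4.29 and 5.42 FPKM in IgG and 11.5, 14.0 and 14.2 FPKM in anti-ITGA5. The log2 fold change was 1.54 ± 0.114 and 1.55 ± 0.113, the closest pair of values after Kif2c and Kif14 of the 10 genes. The first part of Kif4 overlaps Pdzd11 on the other strand, which had 386 to 636 counts per library. Prc1, which bundles antiparallel microtubules and recruits Kif4, rose further than Kif4, by 1.93 without and 1.89 with fibronectin. The ratio of Kif4 to Prc1 was 0.973 to 1.07 in the 6 IgG libraries and 0.745 to 0.865 in the 6 anti-ITGA5 libraries, without overlap. Kif22 (chr7:127027729-127042471, minus strand) stood at 4.36, 4.39 and 5.62 FPKM in IgG and 12.1, 12.3 and 14.0 FPKM in anti-ITGA5 without fibronectin, and at 4.56, 4.62 and 5.41 FPKM against 9.82, 13.8 and 14.6 FPKM with fibronectin. Replicate 3 of anti-ITGA5 with fibronectin was its lowest treated library and still lay above every IgG library. For Kif22 the log2 fold change was 1.42 ± 0.103 and 1.39 ± 0.126.

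Kif2c and Kif18b act at microtubule ends, Kif2c as a depolymerase that corrects faulty attachments at centromeres and Kif18b as a motor that limits the length of astral microtubules together with Kif2c. Kif2c (chr4:117159639-117182639, minus strand) had the largest change of the 10 genes in each comparison. It stood at 2.80, 3.01 and 4.15 FPKM in IgG and 10.6, 12.3 and 12.4 FPKM in anti-ITGA5 without fibronectin, and at 3.08, 3.26 and 4.03 FPKM against 9.59, 13 and 14.6 FPKM with fibronectin. The lowest anti-ITGA5 library thus lay far above the highest IgG library in each comparison. Its log2 fold change was 1.83 ± 0.129 without and 1.83 ± 0.140 with fibronectin, a fold of 3.56 in each. Kif18b (chr11:102905529-102925124, minus strand) stood at 2.90, 3.31 and 3.66 FPKM in IgG and 8.23, 9.08 and 11.5 FPKM in anti-ITGA5 without fibronectin. With fibronectin it stood at 3.09, 4.09 and 4.18 FPKM in IgG and 7.65, 9.72 and 10.3 FPKM in anti-ITGA5. Its log2 fold change was 1.54 ± 0.136 and 1.28 ± 0.125, the widest gap between both dishes among the 10 genes, which the interaction test below did not call. Kif2c and Kif15, the genes of largest and smallest change, exchanged places: the ratio of Kif2c to Kif15 was 0.800 to 0.954 in IgG and 1.24 to 1.72 in anti-ITGA5.

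Kif20a, Kif20b, Kif23 and Kif14 serve the central spindle and cytokinesis. Kif20a carries the chromosomal passenger complex to the midzone, Kif20b works late in cell separation, Kif23 forms the centralspindlin complex with Racgap1, and Kif14 holds citron kinase (Cit) at the midbody. Kif20a (chr18:34624624-34633265, plus strand) stood at 4.81, 4.88 and 4.97 FPKM in IgG and 14.0, 16.8 and 17.9 FPKM in anti-ITGA5 without fibronectin, and at 4.23, 5.37 and 5.54 FPKM against 12.9, 17.1 and 17.9 FPKM with fibronectin. Its IgG libraries without fibronectin were the tightest of all 10 genes (SD 0.0831 FPKM, n = 3). The log2 fold change was 1.73 ± 0.0932 and 1.66 ± 0.123. Its last part overlaps Cdc23 on the other strand, which had 595 to 1014 counts per library. Kif20b (chr19:34922361-34975745, plus strand) stood at 4.83, 5.37 and 6.28 FPKM in IgG and 11.9, 13.2 and 14.7 FPKM in anti-ITGA5 without fibronectin, and at 4.71, 5.42 and 6.07 FPKM against 11.5, 14.3 and 14.5 FPKM with fibronectin. For Kif20b the log2 fold change was 1.27 ± 0.105 and 1.31 ± 0.0971. Kif20a was the lower of this pair in every IgG library, at 0.792 to 0.996 of Kif20b, and the higher in every anti-ITGA5 library, at 1.12 to 1.35.

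Kif23 (chr9:61915905-61946774, minus strand) was the second most abundant of the 10 per length in all 4 groups. It stood at 5.42, 6.40 and 7.36 FPKM in IgG and 15.1, 16.9 and 17.7 FPKM in anti-ITGA5 without fibronectin, and at 5.63, 7.15 and 8.02 FPKM against 14.3, 18.2 and 18.3 FPKM with fibronectin. The log2 fold change was 1.38 ± 0.103 and 1.29 ± 0.113. Racgap1, its partner in centralspindlin, rose by 1.38 and 1.44, and the ratio of Kif23 to Racgap1 overlapped between IgG (0.622 to 0.686) and anti-ITGA5 (0.641 to 0.690) without fibronectin, while with fibronectin it was lower in anti-ITGA5 (0.608 to 0.651) than in IgG (0.664 to 0.736) without overlap. Ect2, the exchange factor that centralspindlin recruits, rose by 1.51 and 1.54. Kif14 (chr1:136466343-136531511, plus strand) was the least abundant, at 1.35, 1.43 and 1.70 FPKM in IgG and 4.01, 4.85 and 5.64 FPKM in anti-ITGA5 without fibronectin, and at 1.33, 1.44 and 1.84 FPKM against 3.88, 5.51 and 5.58 FPKM with fibronectin. Low as its level was, the change was among the 3 largest, at 1.69 ± 0.131 and 1.70 ± 0.141. Cit rose by 1.26 and 1.31, and the ratio of Kif14 to Cit was 0.797 to 0.943 in IgG and 1.04 to 1.29 in anti-ITGA5 without fibronectin, and 0.920 to 1.07 and 1.14 to 1.35 with fibronectin, without overlap in each. The genes that overlap Kif15, Kif22, Kif18b, Kif20b and Kif14 (Gm47148, Gm31749, Gm26668, Mir1950, Gm29485 and Gm29486) had at most 30 counts in a library, and no gene overlaps Kif11, Kif2c or Kif23. Whether the counting used strand is not given in the sources used here, so reads of Kif4 and Pdzd11, and of Kif20a and Cdc23, may not be separable where they overlap.

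**Figure D2:**
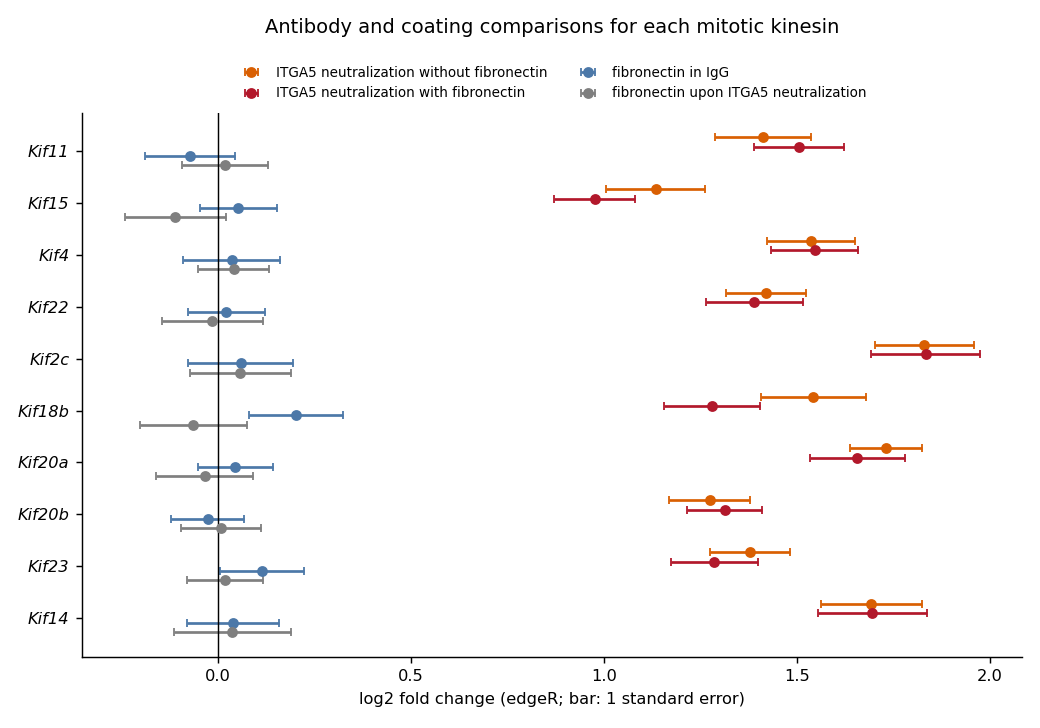
Log2 fold change (horizontal axis, edgeR) of each mitotic kinesin in the antibody comparisons (orange and red) and the coating comparisons (blue and grey), with bars of 1 SE from 3 libraries per group. The antibody estimates lie between 0.98 and 1.83 and the coating estimates between -0.11 and 0.20.

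In order of FPKM, only the ends were separate. Kif11 lay above Kif23 in every library of each group, and Kif14 lay below its neighbour in every library of each group. The ranges of the neighbours from Kif23 down to the gene above Kif14 overlapped in each of the 4 groups. Within single libraries some of these neighbours still kept 1 order, such as Kif23 above Kif20b in all 6 IgG libraries, while others exchanged places, such as Kif20a and Kif22 in IgG and Kif22 and Kif4 in anti-ITGA5, and these do not differ beyond their spread. Across groups the places of some genes moved with the antibody: Kif20b stood above Kif20a by mean FPKM in IgG (5.49 against 4.89 without and 5.40 against 5.05 with fibronectin) and below it in anti-ITGA5 (13.3 against 16.2 and 13.4 against 15.9).

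Fibronectin did not move the kinesins detectably. In IgG, the log2 fold change on coating was -0.07 (Kif11) to 0.20 (Kif18b), with a median of 0.0413, and 0 of 10 were called, with edgeR adjusted p of 0.632 to 0.969 and 0 of 10 at an unadjusted p under 0.05. In the same comparison 58 of 12925 genes (0.449%) were called. DESeq2 gave an adjusted p for 2902 genes here and for 0 of the 10, so it has no count of calls among them. The FPKM of coated and uncoated libraries overlapped for all 10, while 15.4% of the genes tested had groups that did not overlap. The 95% confidence interval of Kif18b was -0.06 to 0.46, that of Kif11 -0.32 to 0.17 and that of Kif20a -0.16 to 0.25. For all 10 genes the upper end of the interval was 0.46 or below. Upon ITGA5 neutralization, the log2 fold change on coating was -0.11 (Kif15) to 0.06 (Kif2c), with a median of 0.0119. Again 0 of 10 were called by edgeR, with adjusted p of 0.979 to 0.996, 0 of 10 at an unadjusted p under 0.05 and 0 of 10 by DESeq2. Of all 12863 genes tested edgeR called 0 (0%), with 461 at an unadjusted p under 0.05, and DESeq2 called 5. The FPKM of the groups overlapped for all 10 again, where 9.74% of the genes tested did not overlap. The interval of Kif15 was -0.40 to 0.18 and that of Kif2c -0.24 to 0.35. Without replicate 2 of anti-ITGA5 without fibronectin the median was 0.09 and without replicate 3 it was -0.07, with 0 of 10 called in each.

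The interaction asks whether the antibody effect differed between coated and uncoated dishes. Both antibody changes were known when the genes were picked, so values near 0 are not free of that choice. The interaction was -0.26 ± 0.209 for Kif18b (95% interval -0.71 to 0.18, unadjusted p = 0.224 by edgeR), the largest of the 10, and 0.09 ± 0.197 for Kif11 (interval -0.33 to 0.51). The other 8 lay between -0.16 (Kif15) and 0.04 (Kif20b). None of the 10 was called (edgeR adjusted p = 0.9997 for each, 0 of 10 at an unadjusted p under 0.05, 0 of 10 by DESeq2), against 3 of 13455 genes (0.0223%). The intervals of Kif2c and Kif14 were -0.45 to 0.45 and -0.47 to 0.47.

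Within each group the 10 kinesins tended to be high or low in the same library. Replicate 2 held the highest log2 CPM for 9 of 10 kinesins in IgG without fibronectin, 9 in anti-ITGA5 without fibronectin, 9 in IgG with fibronectin and 8 in anti-ITGA5 with fibronectin. Replicate 3 held the lowest for 8, 10, 9 and 10 of them in the same order. The mean of the 10 moved by -0.26 to 0.21 on the log2 scale around its group, far less than the antibody change. The labels give no meaning to the replicate number beyond a name, and what the libraries of 1 number share was not tested.

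**Figure D3:**
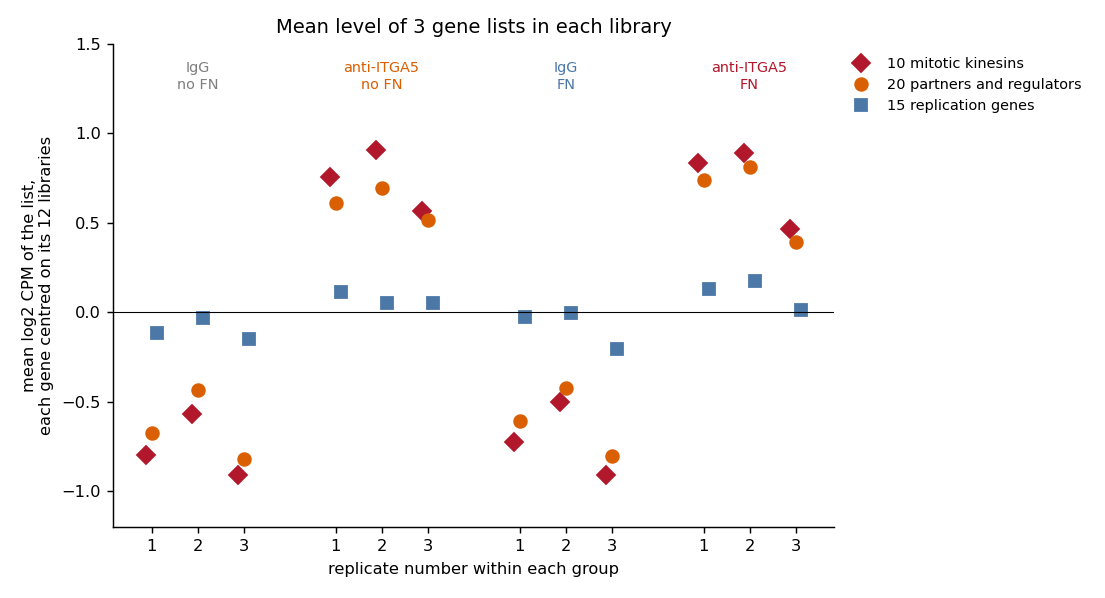
Mean log2 CPM (vertical axis, each gene centred on its 12 libraries) of the 10 mitotic kinesins (red), 20 partners and regulators (orange) and 15 replication genes (blue) in each library (horizontal axis, replicates by group). The kinesins lie between -0.91 and -0.50 in IgG and between 0.47 and 0.91 in anti-ITGA5, whereas the replication genes lie between -0.20 and 0.17.

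The promoters of the 10 genes were read for 2 motifs known from genes of the late cell cycle. These were the cell cycle genes homology region (CHR, searched as TTTGAA or TTCGAA) and the CCAAT box (CCAAT), the binding site of NF-Y. Each was searched on both strands, where TTTGAA reads TTCAAA and CCAAT reads ATTGG, and no CHR match overlapped a CCAAT match in these windows. RefSeq promoter windows on GRCm38.p6, from 250 bases before to 50 after the start, were matched for 9 of the 10 genes, all but Kif20a. A CHR was found in 9 of 9 windows, always as TTTGAA, against 19.2% of all 32851 promoters of the same length. CCAAT was found in 6 of 9 against 37.4%, and both in 6 of 9 (Kif11, Kif4, Kif22, Kif18b, Kif23 and Kif14) against 7.52%. In 7 of 9 windows a CHR lay within 25 bases of the RefSeq start, against 2.64% of all promoters, a distance that was chosen after the positions were seen. Kif2c had its CHR 98 bases before the start and Kif14 223 bases before it, and the RefSeq starts of these genes lie 3867 and 1505 bases inside the gene as the deposited table bounds it. Among the other 7, the RefSeq start lies 328 bases inside the gene for Kif4, 51 for Kif22 and 35 for Kif15. The offset was 0 for Kif18b, -3 for Kif20b, -21 for Kif11 and -25 for Kif23, where a negative value lies before the gene. Distances to the CHR were not counted from the bounds of the deposited table. The stretches from 60 bases before to 25 after the start are shown for the other 7, since they hold the CHR next to the start; each reads 5′ to 3′ on the strand of its gene, with CHR and CCAAT matches in capitals.
Kif11: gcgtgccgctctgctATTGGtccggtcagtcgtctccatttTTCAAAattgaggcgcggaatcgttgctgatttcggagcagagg
Kif15: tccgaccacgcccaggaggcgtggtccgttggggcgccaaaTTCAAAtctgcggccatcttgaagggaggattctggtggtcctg
Kif4: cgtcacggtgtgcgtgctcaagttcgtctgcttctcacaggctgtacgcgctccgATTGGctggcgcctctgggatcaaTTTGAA
Kif22: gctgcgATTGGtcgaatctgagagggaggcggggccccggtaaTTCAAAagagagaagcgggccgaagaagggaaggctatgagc
Kif18b: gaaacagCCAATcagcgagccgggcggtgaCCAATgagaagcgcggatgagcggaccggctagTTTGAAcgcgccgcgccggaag
Kif20b: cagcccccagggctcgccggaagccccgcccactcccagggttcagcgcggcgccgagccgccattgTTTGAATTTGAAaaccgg
Kif23: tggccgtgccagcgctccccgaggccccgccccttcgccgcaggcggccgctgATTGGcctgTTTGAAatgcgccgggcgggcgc

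Those stretches lie at chr19:37376322-37376406 (Kif11, plus strand), chr9:122951021-122951105 (Kif15, plus), chrX:100626005-100626089 (Kif4, plus), chr7:127042396-127042480 (Kif22, minus), chr11:102925100-102925184 (Kif18b, minus), chr19:34922298-34922382 (Kif20b, plus) and chr9:61946775-61946859 (Kif23, minus). Kif11, Kif15 and Kif22 carry the CHR in the reverse sense before the start, and Kif4, Kif18b, Kif20b and Kif23 carry it in the forward sense after the start. In Kif20b, 2 copies follow each other without a gap. Kif18b has 2 CCAAT boxes upstream of its CHR. The windows of Kif15, Kif20b and Kif2c held no CCAAT, and they include the genes of the smallest and the largest antibody change. A match is a stretch of letters and does not show that a factor binds there. The genes were picked as mitotic motors, and the part of the motifs in the antibody change was not tested. Some genes of the other lists matched no window and some matched more than 1. A CHR was found in 15 of 22 promoters of 17 partners, 1 of 6 promoters of the 5 further kinesins with mitotic roles, of which 3 were also higher with the antibody, 5 of 25 promoters of 22 other kinesin superfamily genes and 2 of 12 promoters of 11 replication genes. CCAAT was found in 14, 3, 11 and 9 of these promoters in the same order, both motifs in 12, 1, 4 and 2, and a CHR within 25 bases of the start in 7, 1, 1 and 0. The share with CCAAT was 63.6% for the partners and 75.0% for the replication genes, beside 66.7% for the mitotic kinesins.

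**Figure D4:**
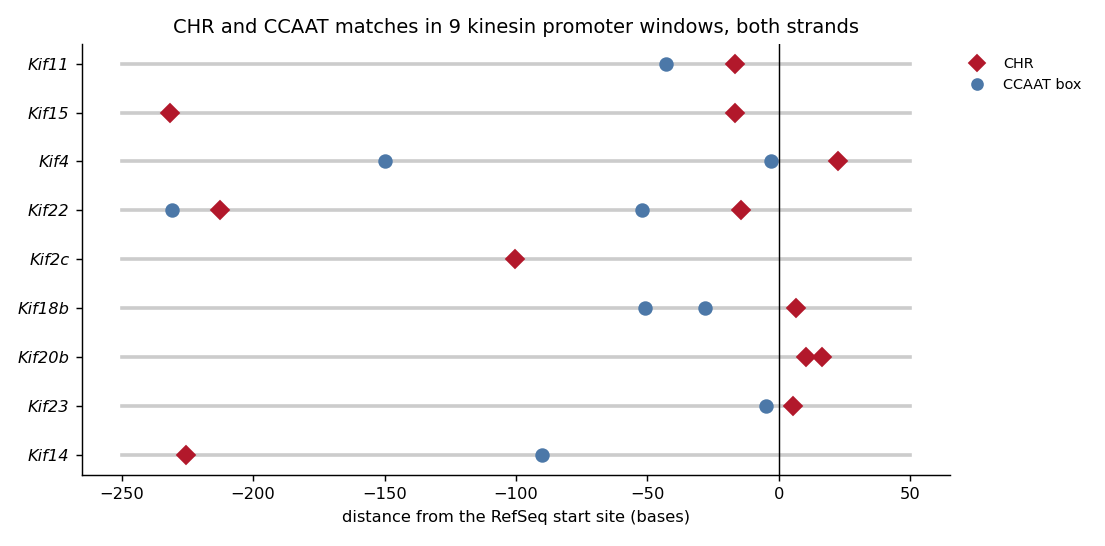
Positions of CHR (red diamonds) and CCAAT (blue circles) matches on either strand in the promoter windows of 9 mitotic kinesins, by distance in bases from the RefSeq start (horizontal axis). In 7 windows a CHR lies within 25 bases of the start.

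Outside the 10 genes, most of the other kinesins with mitotic roles were higher upon ITGA5 neutralization as well, whereas most of the remaining superfamily genes were not. Of 5 further kinesins with mitotic roles, 3 of the 4 tested were called higher in each antibody comparison. Cenpe, which links kinetochores to microtubules, changed by 1.39 and 1.42, Kif18a, which aligns chromosomes at the metaphase plate, by 1.05 and 1.24, and Kifc1, which pulls spindle poles inward, by 1.09 and 1.22. Kif2a, a depolymerase of the same subfamily as Kif2c, was not called, at 0.03 ± 0.0669 and 0.13 ± 0.0573. Kif2a stood at 7.85 to 9.24 FPKM in the 6 IgG libraries and at 8.45 to 9.37 FPKM in the 6 anti-ITGA5 libraries, so that Kif2c was below Kif2a in all IgG libraries and above it in all anti-ITGA5 libraries. Kif2b had too few counts to be tested. Of 30 other kinesin superfamily genes, most of them transport motors, 21 were tested, and 3 were called higher and 2 lower without fibronectin and 2 higher and 8 lower with fibronectin, with medians of -0.02 and -0.12. The largest rises were those of Kifc5b (0.92 and 0.99) and Kif24 (0.82 and 0.82). Kifc5b is a close relative of Kifc1, and how reads were split between them is uncertain. The largest falls were those of Kifc2 (-1.0 and -1.18, called in each) and Kif7 (-0.41, not called, and -0.54, called).

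**Figure D5:**
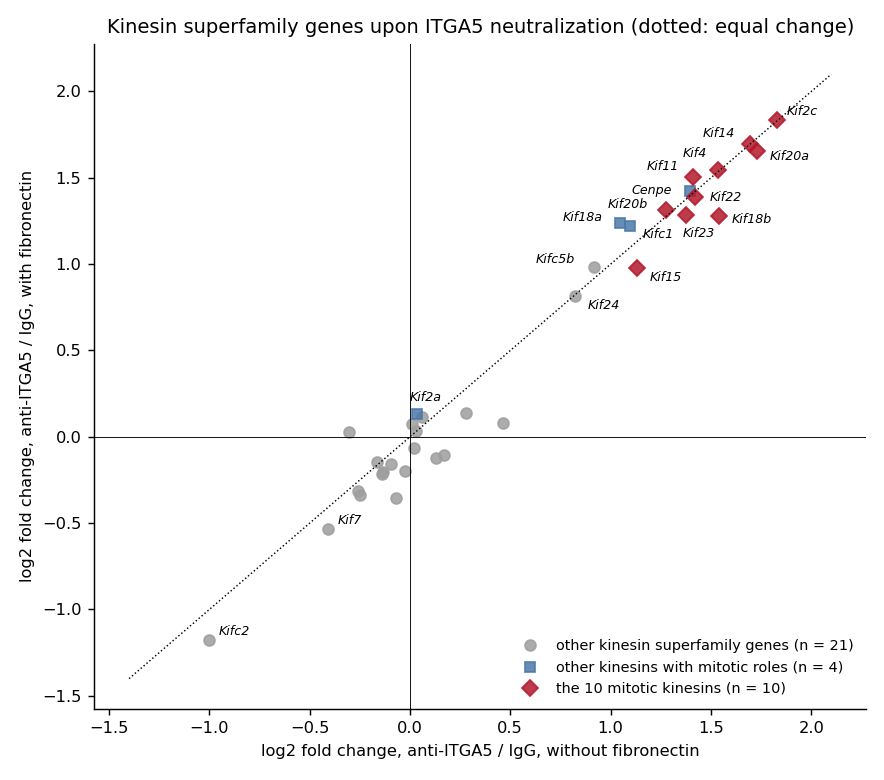
Log2 fold change upon ITGA5 neutralization without (horizontal axis) and with fibronectin (vertical axis) for the 10 mitotic kinesins (diamonds), 4 further kinesins with mitotic roles (squares) and 21 other kinesin superfamily genes (circles); the comparisons share no library. The 10 lie between 0.98 and 1.83 on each axis, and most of the other superfamily genes near 0.

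Of 20 partners and regulators of mitotic kinesins, 17 were called higher and 0 lower without fibronectin, and 18 higher and 1 lower with fibronectin, with medians of 1.38 and 1.41. Plk1, the kinase that docks on Kif20a and Kif23, had the largest rise of the list at 2.18 and 2.27. Aurka and Aurkb, the kinases of spindle poles and of the passenger complex, rose by 1.57 and 1.60 and by 1.14 and 1.14. The end-binding protein gene Mapre1, through which Kif18b reaches microtubule ends, had log2 fold changes of 0.10 (not called) and 0.14 (called), and Mapre3 of -0.44 (not called) and -0.67 (called). Among 16 regulators of G2 and M phase transcription, 8 were called higher and 2 lower without fibronectin and 10 higher and 2 lower with fibronectin. Foxm1, a factor of late cell cycle genes, rose by 1.11 and 1.21, Mybl2 by 0.50 and 0.41, and Lin54, the subunit that contacts the CHR, by 0.40 and 0.51. Nfya, a subunit of NF-Y, fell by 0.26 and by 0.28, while Nfyb rose by 0.42 and 0.37. Of 15 replication genes 5 were called higher and 0 lower in each comparison, with a median of 0.11 in each. Tyms, which makes thymidylate, led them at 0.75 and 0.69, and the helicase genes Mcm2 to Mcm7 were not called, at -0.03 to 0.15 and 0.04 to 0.15. In the coating comparisons 0 genes of any of these lists were called by edgeR.

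Over all 12 libraries the genes whose profile was most like the mean of the 10 kinesins, by root mean square distance of centred log2 CPM among 11676 genes, were Bub1b (0.0357), Racgap1 (0.0607), Cenpe (0.0741), Mki67 (0.0762) and Top2a (0.0870). Against the mean of the other 9, Kif11 (0.0740), Kif4 (0.0815) and Kif22 (0.0868) were nearest, and Kif15 (0.244), Kif2c (0.226) and Kif14 (0.172) farthest.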

How the data were processed

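The members and all gene lists were chosen with earlier results of these data known. The authors aligned paired-end reads of oligo(dT)-enriched libraries to GRCm38, and the submitters' processing notes name TopHat2 2.0.9, HTSeq 0.6.1 and Cufflinks 2.1.1. The authors deposited counts per gene, without normalization, and FPKM, in which a count is divided by gene length and by a library total that is not the plain sum. The Ensembl release and the strand used in counting are not given in the sources used here.

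Counts were tested with edgeR 4.0.16 in R 4.3.3 (filterByExpr with a minimum count of 10 and a minimum total of 15, TMM, quasi-likelihood test, Benjamini-Hochberg adjustment over all genes tested), on the 6 libraries of each comparison and on all 12 for the interaction. Genes at an adjusted p of 0.05 or below count as called. The SE is the log2 fold change over the square root of F, and 95% intervals use the t quantile. FPKM served for levels, ratios and overlap of groups. The scripts were tested on simulated data. Named were all 10 members, the further mitotic kinesins, the 2 largest changes in each direction among other superfamily genes, partners beside their kinesin, and the 5 genes of most similar profile (at least 10 counts in every library). Any other gene was singled out with its values in view. The result of a further marker list is not reported here. Promoters came from RefSeq (GRCm38.p6). The last 20 bases of each of the 9 windows were found in the forward sense in a GENCODE transcript of the same gene, and in none in the reverse sense.

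The labels number the replicates 1 to 3 in each group. Alternatives were DESeq2 1.42.0, scaling by DESeq2 size factors or by total counts, no filter on counts, a floor of 10 counts in each library, a fit over the 12 libraries together, a replicate block, thinning to the smallest library, limma 3.58.1 on FPKM of at least 0.5 after log2 with a pseudocount of 1 or of 0.1, the former also unfiltered, a threshold of 0.01, and omission of single libraries.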

Additional observations from a re-analysis of the deposited data

How the results depend on the processing

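The counts of kinesins called (10 of 10 in each antibody comparison, 0 of 10 in each coating comparison and in the interaction) were the same under every alternative that gave one; in the antibody comparisons this is no sign of stability, since the genes were chosen on them. DESeq2 gave no count for coating in IgG, where all 10 were left without an adjusted p. The median antibody change kept its sign and fell to 1.28 without and 1.22 with fibronectin under limma on log2(FPKM + 1), with a minimum of 0.5 FPKM or with no filter; a pseudocount of 1 shrinks the change of low genes by construction. With each library left out in turn it was 1.37 to 1.60 without and 1.35 to 1.59 with fibronectin.

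No coating or interaction value passed the test. Under all alternatives run, 3 of the 30 values kept their sign: with each library left out in turn, coating in IgG gave 0.12 to 0.32 for Kif18b, and the interaction gave -0.39 to -0.11 for Kif18b and -0.29 to -0.011 for Kif15. The other signs changed under at least 1 setting. With each library left out in turn, coating in IgG gave -0.20 to 0.090 for Kif11, -0.094 to 0.15 for Kif15, -0.12 to 0.19 for Kif4, -0.061 to 0.15 for Kif22, -0.068 to 0.25 for Kif2c, -0.028 to 0.15 for Kif20a, -0.12 to 0.082 for Kif20b, -0.0033 to 0.24 for Kif23 and -0.11 to 0.14 for Kif14. Coating upon ITGA5 neutralization gave -0.079 to 0.14 for Kif11, -0.25 to 0.034 for Kif15, -0.012 to 0.13 for Kif4, -0.12 to 0.14 for Kif22, -0.075 to 0.21 for Kif2c, -0.17 to 0.089 for Kif18b, -0.14 to 0.094 for Kif20a, -0.071 to 0.11 for Kif20b, -0.051 to 0.12 for Kif23 and -0.089 to 0.19 for Kif14. The interaction gave -0.071 to 0.23 for Kif11, -0.15 to 0.17 for Kif4, -0.17 to 0.13 for Kif22, -0.19 to 0.16 for Kif2c, -0.19 to 0.063 for Kif20a, -0.071 to 0.15 for Kif20b, -0.22 to 0.025 for Kif23 and -0.12 to 0.16 for Kif14.

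Thinning turned the coating change of Kif14 in IgG to -0.024 and that of Kif11 upon ITGA5 neutralization to -0.0020. Total counts in place of TMM turned the latter to -0.0011 for Kif11, -0.0099 for Kif20b and -0.00028 for Kif23, and no filter turned Kif22 to 0.0074. The interaction of Kif2c became 0.0056 with DESeq2, 0.0066 with DESeq2 size factors, 0.0028 with total counts, 0.0051 with no filter and 0.0018 with at least 10 counts in every library. That of Kif14 became 0.0036, 0.0069, 0.00048, 0.0067 and 0.0013 under the same settings, 0.041 with thinning, 0.014 under limma on log2(FPKM + 1) with and without the filter and 0.010 on log2(FPKM + 0.1), and that of Kif4 became -0.0087 with thinning. The cause was not tested.

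The replicate numbers were not taken as pairs, since the labels do not give them as pairs. Over all genes passing the filter, deviations of same-numbered samples correlated by -0.03 to 0.13. Every sample correlated best with its own number in 3 of the 4 comparisons of pairs of groups, and 1 of 3 did in coating upon ITGA5 neutralization, a hint from the data and not from the design. The mean log2 deviation of the kinesins from their group was 0.16 to 0.21 in replicate 2 and -0.26 to -0.15 in replicate 3. The SE and intervals of the coating and interaction values, made without pairs, hold this shared spread as error. With the replicate block, 10, 10, 0, 0 and 0 kinesins were called, as without it, while all genes called went from 58 to 416 for coating in IgG. Over the alternatives, the genes called among all tested ranged from 1220 (limma on log2(FPKM + 1), no filter) to 3834 (without replicate 2 of anti-ITGA5) against 2684 for the antibody without fibronectin, from 1871 (the same limma setting) to 4538 (replicate block) against 3565 with fibronectin, from 5 (limma on log2(FPKM + 0.1)) to 416 for coating in IgG, from 0 to 327 (no filter) for coating upon ITGA5 neutralization, and from 1 to 65 (no filter) against 3 for the interaction. No kinesin was short of counts, and the precision of the coating values is that of 3 libraries per group, compared without pairs.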
